A study of Mus musculus with 2 samples.

Results

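Ctcfl, Ctcflos and Mageb18 are 3 of the 31053 genes counted in nuclei of inguinal fat (iWAT, a white depot under the skin) of mice, and RNA of each was found almost wholly in adipocyte nuclei. They were chosen by their fold in adipocyte clusters over other nuclei of these same data, so their levels by cell type are given as a description. Adipocytes of the 2 libraries fell into different clusters, so the choice also bears on the difference between libraries, which is likewise a description. Symbols and gene IDs are those of the deposited tables.

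Single-nucleus RNA sequencing (snRNA-seq) was carried out to compare iWAT of mice with and without Lexis, a long noncoding RNA, in their fat cells. Male mice on a Western diet gave tissue for 1 library labelled Lexis WT and 1 library labelled Lexis KO, each a pool of 3 mice, and the sources used here give no age for these pools. Both groups carried Lexis fl/fl alleles; the KO group (Lexis-AdKO) also carried adiponectin-cre, which is active in adipocytes and deletes Lexis there, and the WT group (Lexis-AdWT) was Cre-negative, so Lexis remained intact in cells that do not express adiponectin. In 2 of the 2 libraries the file name and the label give opposite genotypes, and Lexis itself was not analysed here. Every direction below therefore follows the labels, and a library or its nuclei are called labelled WT or labelled KO.

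CTCFL, also known as BORIS, is a paralogue of CTCF, the zinc finger protein that binds insulators and stops cohesin at the anchors of chromatin loops. CTCFL is normally made in male germ cells and is silent in most somatic tissues, where DNA methylation of its promoter keeps it off. Ctcflos is a long noncoding RNA transcribed from the opposite strand beside Ctcfl. Mageb18 belongs to the X-linked MAGE family, whose proteins bind RING ubiquitin ligases. Ctcfl and many type I MAGE genes are classed as cancer-testis genes, which are used in the testis, repressed in other adult tissues and switched on again in some tumours.

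On the GRCm38.p6 assembly, the RefSeq model of the protein-coding gene Ctcfl (ENSMUSG00000070495) spans chr2:173093609-173119525 on the minus strand. Ctcflos (ENSMUSG00000087382) spans chr2:173124749-173133204 on the plus strand, 5223 bases away. In the older GENCODE M1 models the 2 genes overlap on opposite strands by 8708 bases, and the sources used here do not state how strand was treated in the counting, so reads from the shared stretch may not have been told apart. Mageb18 (ENSMUSG00000067649), which is protein-coding, spans chrX:92118879-92599572 on the minus strand. Its model is 480694 bases long. Intronic lengths are those of GENCODE M1, with 478451 bases in Mageb18, 22700 in Ctcfl and 17289 in Ctcflos. The GENCODE M1 model of Ctcflos spans 22387 bases, against 8456 in RefSeq.

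The promoter windows of Ctcflos and Mageb18 are shown because both genes were read in adipocytes and hardly at all in other nuclei. Each window runs from 250 bases before to 50 bases after the RefSeq start (GRCm38.p6), at chr2:173124499-173124798 on the plus strand for Ctcflos and at chrX:92599523-92599822 on the minus strand for Mageb18. Capitals mark every match, on either strand, of 4 motifs, namely TATAAA (the TATA box), CACGTG (an E-box), AGGTCA (a hexamer bound by nuclear receptors) and CCAAT (bound by NF-Y).

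Ctcflos: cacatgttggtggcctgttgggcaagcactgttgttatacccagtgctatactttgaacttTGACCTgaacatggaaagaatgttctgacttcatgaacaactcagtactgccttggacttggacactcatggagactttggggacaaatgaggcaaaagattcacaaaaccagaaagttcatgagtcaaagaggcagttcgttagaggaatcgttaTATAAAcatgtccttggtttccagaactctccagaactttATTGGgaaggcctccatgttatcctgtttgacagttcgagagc

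Mageb18: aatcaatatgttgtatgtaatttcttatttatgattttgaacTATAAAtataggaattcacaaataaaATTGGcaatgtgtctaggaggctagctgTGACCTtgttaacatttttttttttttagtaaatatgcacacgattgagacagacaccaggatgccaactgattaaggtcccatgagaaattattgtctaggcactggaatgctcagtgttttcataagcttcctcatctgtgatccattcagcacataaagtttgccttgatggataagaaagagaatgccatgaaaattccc

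Each of the 2 windows held 1 match to TATAAA, 1 to AGGTCA and 1 to CCAAT, none of which overlapped another, and 0 to CACGTG. The share of 32851 mouse promoters of the same length with a match was 13.6% for TATAAA, 16.3% for AGGTCA, 37.4% for CCAAT and 7.15% for CACGTG. The Ctcflos window held 3 CG dinucleotides and the Mageb18 window 1, and 31.4% and 14.1% of promoters held as few. These matches describe the letters in the windows and are not evidence that a factor binds there.

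The deposited counts held 9376351 unique molecular identifiers (UMIs, each standing for 1 captured RNA molecule) in the library labelled WT and 19655049 in that labelled KO, each over 5000 barcodes. After filtering, 3503 and 2852 nuclei were kept, with medians of 1195 and 3879 UMIs, and 10 of the kept barcodes occurred in both libraries. Adipocyte nuclei numbered 418 in the library labelled WT (median 3651.5 UMIs) and 894 in that labelled KO (median 7848.5 UMIs). They came from different clusters, all 418 from a cluster in which 11 of 14 adipocyte markers passed and 889 of the 894 from a cluster in which 13 of 14 passed, so values within the class compare those clusters. The 14 adipocyte markers summed to 26648 CPM (the count per 1000000 UMIs of the nuclei summed) in adipocytes and 4078 CPM in other nuclei labelled WT, and to 31790 and 4811 CPM in those labelled KO. Several marker lists of other cells were higher in adipocytes labelled WT than in those labelled KO. The 14 ASPC markers stood at 1333 against 627 CPM and the 14 myeloid markers at 970 against 403 CPM. The 14 lymphocyte markers stood at 3473 against 3252 CPM. In other nuclei these lymphocyte markers had 5422 CPM labelled WT and 2710 CPM labelled KO, the latter below the adipocyte level. The myocyte (28.7 against 109 CPM) and epithelial lists (96.3 against 241 CPM) were lower in adipocytes labelled WT. The part of these lists in the results was not tested. Among genes leading the second of these clusters by fold Mageb18 stood first and none of the top 10 was a listed adipocyte marker, while 3 of the top 10 of the other cluster were. With 1 library per genotype there is no replicate, no test was made, and the intervals given, all at 95%, cover counting error and not the spread between mice.

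Ctcfl RNA was rare in adipocytes labelled WT and common in those labelled KO. There were 31 UMIs in 30 of 418 adipocyte nuclei labelled WT, or 15.9 CPM (10.8 to 22.5), and 1793 UMIs in 523 of 894 nuclei labelled KO, or 207 CPM (198 to 217). At the level of the library labelled KO, 405 UMIs would have been counted in adipocytes labelled WT. The ratio was 13.1 (9.17 to 19.3). At an equal depth of 1000 UMIs per nucleus, which 10 and 5 nuclei did not reach, 5 of 408 nuclei (1.23%, 0.399% to 2.84%) and 138 of 889 (15.5%, 13.2% to 18.1%) had a UMI of Ctcfl, against 7.18% and 58.5% at full depth. The intervals of the libraries, which cover counting error only, did not overlap on either measure. A ratio of at least 2 was common, at 25.9% of genes with at least 50 counts.

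Ctcflos was read in most adipocytes of both libraries. It had 1943 UMIs in 347 of 418 nuclei labelled WT, 995 CPM (951 to 1040), and 17987 UMIs in 862 of 894 nuclei labelled KO, 2081 CPM (2051 to 2112). The ratio of the libraries was 2.09 (2.00 to 2.19), far nearer to 1 than that of the neighbouring gene Ctcfl. At 1000 UMIs per nucleus 55.1% (50.2% to 60.04%, n = 408) and 76.6% (73.7% to 79.4%, n = 889) of adipocyte nuclei had a UMI, against 83.0% and 96.4% at full depth.

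Mageb18 differed most between the libraries of the 3 genes. The library labelled WT held 20 UMIs in 17 of 418 adipocyte nuclei, 10.2 CPM (6.26 to 15.8), and the library labelled KO held 13788 UMIs in 358 of 894, 1595 CPM (1569 to 1622). The level labelled KO would have given 3116 UMIs there. The ratio was 156 (101 to 255). At 1000 UMIs per nucleus the shares were 0.735% (3 of 408, 0.152% to 2.13%) and 27.6% (245 of 889, 24.6% to 30.6%), against 4.07% and 40.0% at full depth. The Mageb18 level in adipocytes labelled WT lay near the 10.8 CPM of the nuclei other than adipocytes in the library labelled KO.

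A ratio of at least 2 between libraries was common in adipocytes. It was reached by 2939 of 11351 genes with at least 50 counts (25.9%), while 2002 (17.6%) had a ratio of at most 0.5. With at least 10 counts the shares were 27.7% and 22.2% of 15101 genes. All 3 genes were among those at or above 2 in the main setting. Ctcflos fell below 2 without mitochondrial genes and Malat1 (log2 ratio 0.81) and with at least 1000 genes per barcode (0.99). Since the choice of the 3 genes used these nuclei, nothing is read from their count. By size of ratio Mageb18 stood 23rd, Ctcfl 380th and Ctcflos 2532nd of the 11084 genes seen in adipocytes of both libraries. Ctcflos was thus near the edge of the group at or above 2. These places follow the labels. With the labels exchanged each ratio would be inverted, and the places would count from the lowest ratio. Another 266 genes had 0 UMIs labelled WT and no measured ratio, and are not ranked. The median log2 ratio of all genes tested was -0.05 in CPM, 0.25 with TMM scaling and -0.30 without mitochondrial genes and Malat1, and log2 ratios of 3.71 for Ctcfl, 1.06 for Ctcflos and 7.28 for Mageb18 stand against those shifts.

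**Figure D1:**
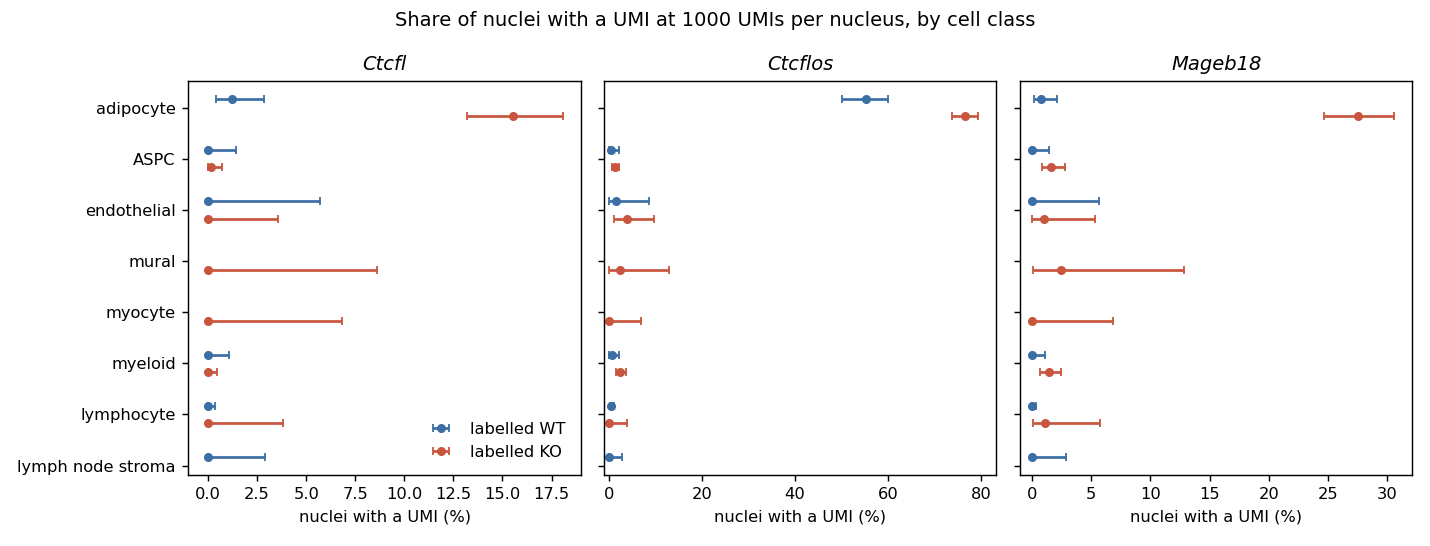
Share of nuclei (%) with at least 1 UMI of each gene after thinning every nucleus to 1000 UMIs, for each cell class and library, with Clopper-Pearson 95% intervals; classes with no nucleus in a library, and the 9 mural nuclei of the library labelled WT, have no point, and the horizontal scales differ between panels. Adipocytes labelled KO stand at 15.5% for Ctcfl, 76.6% for Ctcflos and 27.6% for Mageb18, while all other classes are below 4%.

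The ratio between libraries also moved with the intronic length of genes, which matters most for Mageb18. The median log2 ratio in adipocytes went from -0.91 for genes with 1 to 3000 intronic bases, through -0.20 for those with more than 10000 and up to 30000, which include Ctcfl and Ctcflos, to 1.38 for the 1389 genes above 100000, which include Mageb18. Among 386 genes seen in both libraries and within 2 times the intronic length of Mageb18 the median was 2.05, and 2 had a higher ratio than Mageb18. Less the median of their length class, the log2 ratios were 3.91 for Ctcfl, 1.26 for Ctcflos and 5.90 for Mageb18. The class of Ctcflos follows its GENCODE M1 model. Its RefSeq model, at 8456 bases, would fall in a shorter class with another median.

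**Figure D2:**
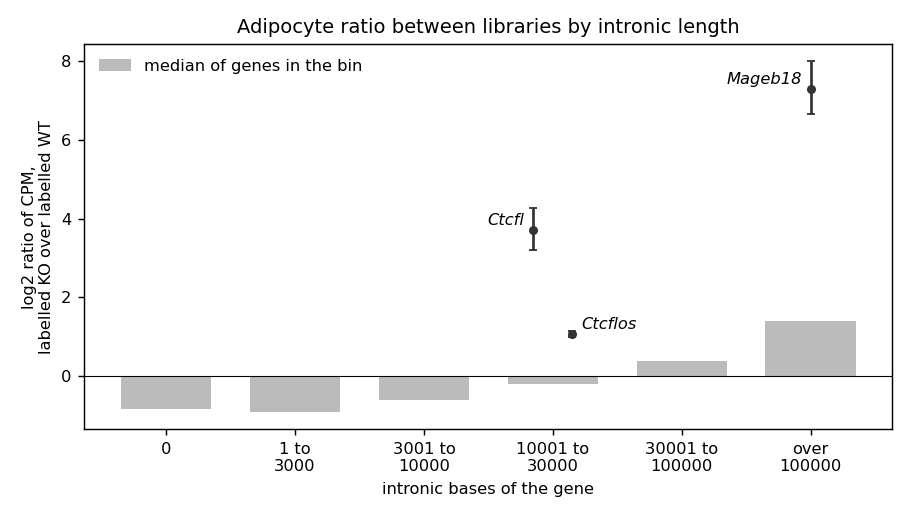
Log2 ratio of adipocyte CPM, labelled KO over labelled WT, against intronic bases of the gene in 6 classes; bars are the median of all genes in the class and points the 3 genes with 95% intervals for counting error. The points lie at 3.71 for Ctcfl, 1.06 for Ctcflos and 7.28 for Mageb18. Since the genes were chosen from these nuclei, nothing is read from their place above the bars.

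Outside adipocytes the 3 genes were close to 0. Ctcfl had 1 UMI over 3085 other nuclei labelled WT and 4 over 1958 labelled KO. The adipocyte level was 74.1 times that of other nuclei in the first of these libraries (12.3 to 3018, resting on that 1 UMI) and 362 times in the second (141 to 1329). The 4 UMIs came from 2 ASPC nuclei (adipogenic stem and precursor cells, here with fibroblasts) and 2 myeloid nuclei. No UMI was seen in lymphocyte, endothelial or mural nuclei of either library (10 mural nuclei were labelled WT), in the 52 myocyte nuclei, all labelled KO, or in the 148 lymph node stroma-like nuclei, all labelled WT. In 2109 lymphocyte nuclei labelled WT a count of 0 allows up to 1.16 CPM.

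Ctcflos had 49 UMIs in other nuclei labelled WT (10.5 CPM) and 101 in those labelled KO (14.5 CPM). Adipocytes exceeded them 94.7 times (71.4 to 128) and 144 times (118 to 177). The highest levels after adipocytes were 32.6 CPM in endothelial nuclei labelled KO (8 UMIs, 14.1 to 64.3), 26.9 CPM in ASPC nuclei labelled WT (20 UMIs, 16.4 to 41.5) and 20.5 CPM in myeloid nuclei labelled KO (57 UMIs, 15.5 to 26.6), and these intervals overlap. ASPC nuclei labelled KO had 9.08 CPM, lymphocytes labelled WT 8.52 CPM and myeloid nuclei labelled WT 5.69 CPM. At 1000 UMIs per nucleus 33 of 1846 other nuclei labelled KO (1.79%) and 9 of 1882 labelled WT (0.478%) had a UMI.

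Mageb18 had 0 UMIs in the 3085 other nuclei labelled WT and 75 UMIs in 64 of the 1958 labelled KO. Against a floor of 3 counts over the other nuclei, adipocytes labelled WT were at least 15.9-fold higher (11.8-fold at the lower 95% limit, which also covers the 20 adipocyte UMIs), and those labelled KO were 148 times higher (118 to 189). Within the library labelled KO the other classes did not order beyond their intervals. Myocyte nuclei had 18.9 CPM (5 UMIs, 6.14 to 44.1), ASPC 11.2 CPM (37 UMIs, 7.88 to 15.4), myeloid 10.4 CPM (29 UMIs, 6.98 to 14.98), lymphocyte 8.36 CPM (2 UMIs), mural 7.13 CPM (1 UMI) and endothelial 4.08 CPM (1 UMI). At equal depth 12 of 761 ASPC nuclei (1.58%), 11 of 795 myeloid nuclei (1.38%) and 1 of 95 lymphocytes (1.05%) had a UMI.

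By the ratio of adipocytes to other nuclei, the library labelled KO placed Ctcfl 5th, Mageb18 10th and Ctcflos 11th of the 13340 genes seen on both sides, with 14 more at 0 outside adipocytes. A ratio of at least 2 was found in 1821 of 13410 genes (13.6%). Ctcflos labelled WT stood sixth of 10940 genes seen on both sides, 1088 of 10945 genes (9.94%) reached 2, and the other two had fewer than 50 counts and were not ranked. These ranks describe the contrast by which the genes were chosen. With doublets kept the log2 ratio in the library labelled KO was 7.07 for Ctcfl against 8.50, and 6.46 for Ctcflos against 7.17. With at least 1000 genes per barcode the log2 ratio of Ctcflos in the library labelled WT was 5.06 against 6.57.

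Free RNA in the droplets gives UMIs of adipocyte genes in nuclei of other cells, and the genes were compared with the 14 adipocyte markers on that measure. The level in other nuclei, as a percentage of the adipocyte level of the same library, was 1.35% for Ctcfl, 1.06% for Ctcflos and 0% for Mageb18 labelled WT and 0.276%, 0.696% and 0.674% labelled KO. For the markers it ran from 1.89% (Adrb3, a beta-adrenergic receptor) to 30.5% (Fabp4, a fatty acid binding protein), median 10.4%, labelled WT, and from 1.80% (Tshr) to 57.4% (Fabp4), median 7.20%, labelled KO. In the library labelled KO all 3 genes lay below the lowest marker, as did Ctcflos labelled WT. The 3 genes were chosen by their fold in adipocytes, of which this percentage is in effect the inverse. Nothing is therefore read from their place below the markers. Ctcfl and Mageb18 labelled WT rest on 1 and 0 UMIs outside adipocytes, too few to place them among the markers. Some markers are also used by other cells of the tissue, and the part of free RNA in the low counts outside adipocytes was not tested.

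Among adipocytes labelled KO Mageb18 was spread very unevenly. Of 894 nuclei 536 had no UMI, while 208 nuclei with at least 10 UMIs held 96.1% of all Mageb18 UMIs. Among the 358 nuclei with a UMI the median was 15.5, the upper quartile 47 and the highest count 434. Had the same UMIs been shared out in proportion to the depth of each nucleus, 99.5% of nuclei would have had at least 1, against the 40.0% seen. Nuclei with Mageb18 had a median of 10844 UMIs in all and nuclei without it 6513.5. Since each library is a pool and nuclei could not be assigned to a mouse, a difference between the 3 mice and a difference between nuclei of the same mouse cannot be told apart.

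Ctcfl and Ctcflos were spread more evenly. Ctcfl was expected in 76.4% of adipocyte nuclei labelled KO if shared by depth and was seen in 58.5%, with a median of 2 UMIs among nuclei that had any and a highest count of 34. For Ctcfl labelled WT 7.01% were expected and 7.18% seen. Ctcflos was expected in 99.8% and seen in 96.4% of nuclei labelled KO, with a median of 14 UMIs where seen and a highest count of 238, and in the library labelled WT 92.9% were expected and 83.0% seen, with a highest count of 68. For Mageb18 in the library labelled WT 4.61% were expected, 4.07% were seen and no nucleus had more than 2 UMIs.

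**Figure D3:**
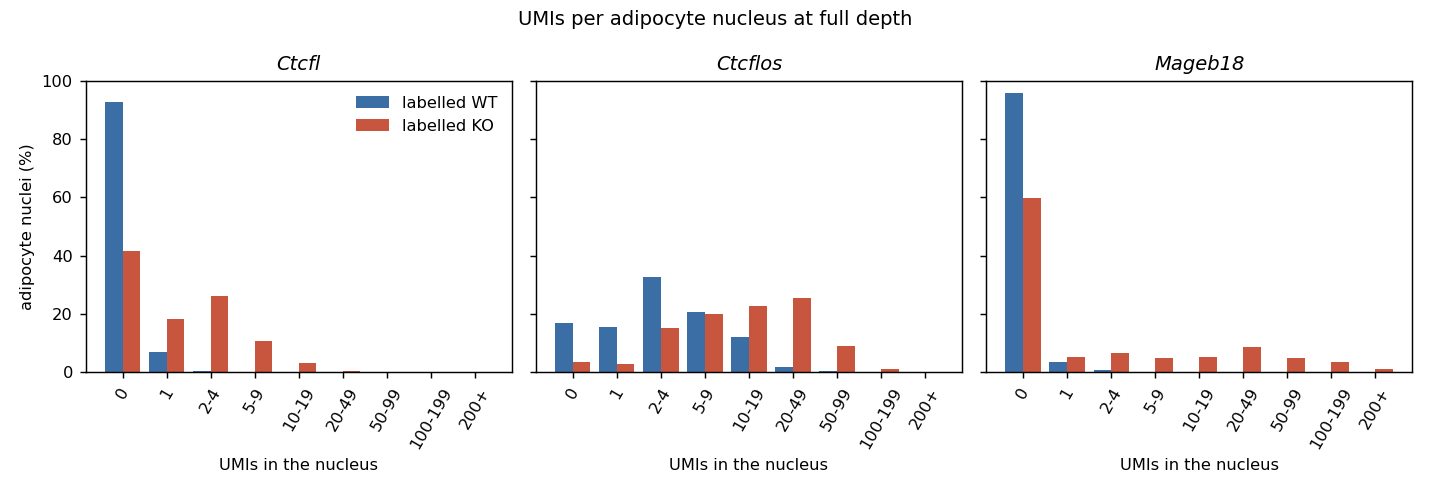
Percentage of adipocyte nuclei (vertical axis) by the number of UMIs of each gene in the nucleus (horizontal axis, in classes), for the 418 nuclei labelled WT and the 894 labelled KO at full depth. Mageb18 labelled KO has 59.96% of nuclei at 0 and a broad tail up to more than 200 UMIs, whereas no adipocyte labelled WT has more than 2.

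The 3 levels also climbed with the depth of the nucleus in the library labelled KO. With adipocyte nuclei split by depth into 4 groups of like size, from the shallowest to the deepest, Ctcfl stood at 105, 151, 184 and 257 CPM and Ctcflos at 1595, 1740, 1889 and 2380 CPM. Mageb18 stood at 409, 553, 763 and 2576 CPM. Ctcflos labelled WT varied little, from 932 CPM in the shallowest group to 1013 CPM in the deepest, with overlapping intervals. The shallowest group labelled KO had a median depth of 3580.5 UMIs, and the medians of the groups labelled WT ran from 1648 to 7903. In the groups labelled WT Ctcfl lay between 11.8 and 19.9 CPM and Mageb18 between 0 and 15.9 CPM. The part of depth in the difference between libraries was not tested.

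Within adipocytes labelled KO a nucleus with 1 of the genes more often had another of them than did a nucleus without it. Ctcfl and Mageb18 were both seen in 288 nuclei, Ctcfl without Mageb18 in 235, Mageb18 without Ctcfl in 70 and neither in 301. Mageb18 was thus found in 55.1% of nuclei with Ctcfl and 18.9% of those without, an odds ratio of 5.27. At 1000 UMIs per nucleus the shares were 46.4% and 24.1% and the odds ratio 2.72, smaller than at full depth. Ctcflos was found in 519 of the 523 nuclei with Ctcfl and in 357 of the 358 with Mageb18. At equal depth the odds ratio was 2.62 for Ctcfl with Ctcflos and 3.01 for Ctcflos with Mageb18. In the library labelled WT all 30 nuclei with Ctcfl and all 17 with Mageb18 also had Ctcflos, which 83.0% of all adipocyte nuclei had, and 3 nuclei had all of the 3 genes.

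Adipocytes of each library were clustered again without the 3 genes, and the levels differed between the subclusters labelled KO. Mageb18 stood at 2577 CPM in subcluster 0 (374 nuclei, led by Trpc4, Serpina1b and 1700047G03Rik), 183 CPM in subcluster 1 (283 nuclei, led by Gulp1 and St6galnac5), 80.5 CPM in subcluster 2 (206 nuclei, led by Nnat, Cfd and Gsn, with the mitochondrial mt-Cytb also among its 8 leading genes) and 1142 CPM in subcluster 3 (31 nuclei, led by Mecom, Dclk2 and Ucp1). Thinned to 1000 UMIs, 57.0%, 6.71%, 3.48% and 19.4% of their nuclei had a UMI. Subcluster 0 held 12911 of the 13788 UMIs. In subcluster 3 the 351 UMIs came from 29.0% of its 31 nuclei, and its share at equal depth (7.45% to 37.5%) overlapped that of subcluster 1 (4.09% to 10.3%). Subcluster 2 was lowest for Mageb18 by CPM, while its share at equal depth (1.41% to 7.04%) overlapped that of subcluster 1. The part of the mitochondrial RNA and depth of subcluster 2 was not tested. The subclusters with most and least Mageb18 also differed in depth, with medians of 11128.5 and 3886.5 UMIs, and subclusters 1 and 3 had 8252 and 8068.

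The same order held for Ctcfl, at 269, 135, 68.1 and 163 CPM in subclusters 0 to 3, and for Ctcflos, at 2506, 1495, 1353 and 1874 CPM. Thinned to 1000 UMIs, 22.5%, 12.4%, 6.47% and 19.4% of nuclei had a UMI of Ctcfl, and 86.9%, 69.6%, 65.2% and 90.3% of Ctcflos, so subcluster 3 (74.2% to 98.0%) then lay above subcluster 0 (83.1% to 90.1%) for Ctcflos, with overlapping intervals. The Ctcfl intervals of subclusters 1 (121 to 151) and 3 (121 to 214) overlapped. The other Poisson intervals of neighbours in that order did not, but they count UMIs, which a few nuclei can carry. Ctcflos labelled WT was highest in subcluster 0, at 1283 CPM (1205 to 1365), and stood at 869, 725 and 596 CPM in subclusters 1 to 3, of which subcluster 1 (133 nuclei) had F13a1, Cd84 and Lilr4b, genes of myeloid cells, among its leading genes. There Ctcfl had 24.2, 11.1, 0 and 14.1 CPM from 19, 9, 0 and 3 UMIs, and Mageb18 had 15.3, 8.63, 0 and 4.69 CPM from 12, 7, 0 and 1 UMIs, with intervals that overlap.

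**Figure D4:**
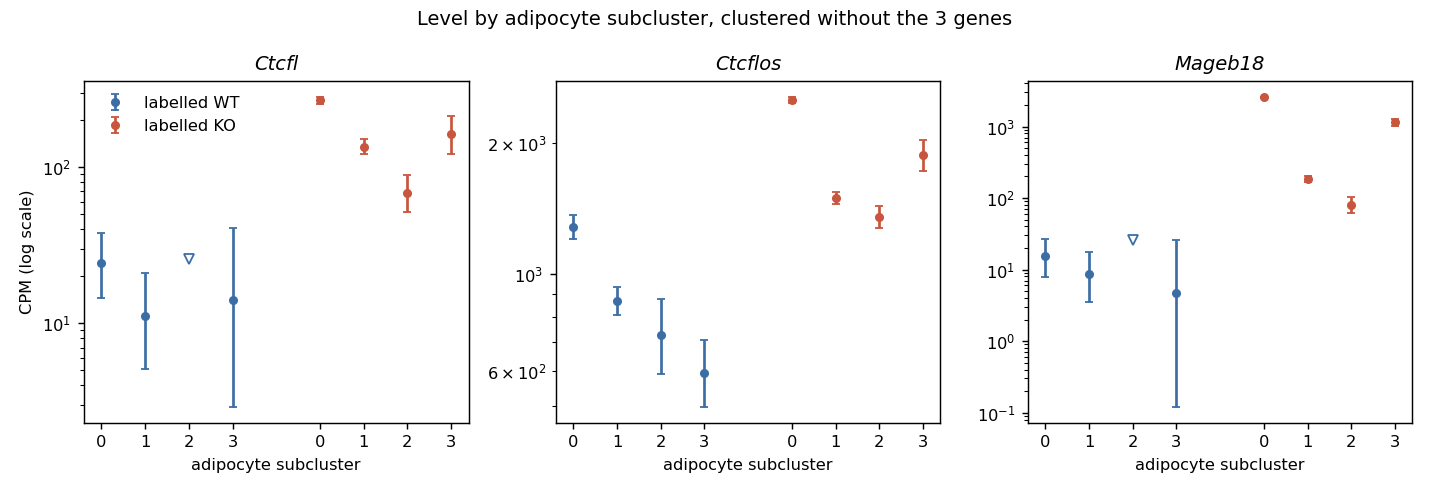
Level of each gene (CPM, log scale, with Poisson 95% intervals) in the subclusters 0 to 3 of adipocytes of each library, numbered separately by library; an open triangle is the upper limit where 0 UMIs were counted. Mageb18 runs from 80.5 to 2577 CPM within the library labelled KO, and its lowest subcluster there lies above every subcluster labelled WT.

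Other genes were then compared between the 358 adipocyte nuclei labelled KO with Mageb18 and the 536 without. A ratio of at least 2 was reached by 438 of 10608 genes (4.13%) and a ratio of at most 0.5 by 306 (2.88%). Because depth differed, the ratios were computed again in nuclei of 4000 to 12000 UMIs, 181 with and 347 without Mageb18 (median depth 7973 and 7074), where 229 and 177 of 8316 genes passed. The split was chosen after the data had been seen, and nuclei of 1 library are not replicates.

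The 5 highest ratios among genes with at least 500 counts were those of Trpc4, a cation channel (164 against 3.57 CPM, ratio 45.9, 27.2 to 84.4), Serpina1b, an alpha-1-antitrypsin gene (16.2), Slc5a7, the choline transporter (14.2), Pex5l (12.4) and Wdr95 (8.03). In the depth window these were 145, 14.9, 14.96, 18.9 and 5.21. After thinning each nucleus to 1000 UMIs they were 27.4, 16.5, 20.5, 31.1 and 24.5. These 5 genes had 14 to 59 UMIs in nuclei without Mageb18. They passed the minimum only through nuclei with it, so nothing is read from their places. In adipocytes labelled WT Trpc4 and Serpina1b were at 0.512 CPM, or 1 UMI each, and Wdr95 at 1.02 CPM. Slc5a7 and Pex5l stood there at 53.3 and 16.4 CPM, above their 15.1 and 12.3 CPM in nuclei labelled KO without Mageb18. Ctcfl was at 267 CPM with and 135 CPM without Mageb18 (ratio 1.98, and 2.11 in the window), and Ctcflos at 2487 and 1592 CPM (1.56 and 1.59).

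The 5 lowest ratios were those of Pck1, the PEPCK enzyme that makes glycerol phosphate precursors in fat (213 against 1070 CPM, ratio 0.199, 0.185 to 0.213), Gulp1 (0.207), Podn (0.215), Dennd2d (0.229) and Cfd, the adipokine adipsin (0.234). In the window they were 0.268, 0.286, 0.254, 0.397 and 0.328. Further genes were picked after their values were seen, so they do not describe a programme. Cidea, a lipid droplet protein abundant in brown fat, had 10.4 against 68.9 CPM (0.150, and 0.279 in the window), Ebf2, a transcription factor of beige fate, 65.8 against 262.7 CPM (0.251 and 0.332) and Ppargc1a, a coactivator of mitochondrial genes, 23.5 against 62.6 CPM (0.376 and 0.327). Ucp1, the uncoupling protein, had 4 against 67 UMIs (0.0495 and 0.170). After thinning each nucleus to 1000 UMIs the ratios were 0.247 for Cidea, 0.325 for Ebf2, 0.556 for Ppargc1a and 0.371 for Ucp1. Of other genes that the thermogenic fat cell uses, Adrb3 (1.07, and 1.11 in the window) and Acsl1 (0.980 and 1.06) stood near 1. Elovl6 was lower, at 0.801 (0.666 to 0.963, and 0.901 in the window). Subcluster 3, with Ucp1 among its leading genes beside Mecom and Flt1, which also led the endothelial cluster, had the second highest level of Mageb18. In a split of the same nuclei by Ctcfl, Ucp1 had 60 against 11 UMIs (1.92, 0.999 to 4.04, and 2.56 in the window, 1.24 to 5.79). With at least 5 Ctcfl UMIs (126 nuclei) against 0, its ratio was 0, so its direction was not settled. Nuclei with Ctcfl had a median of 10177 UMIs in all and those without 5316. Of 10608 genes 391 were at or above 2 in that split and 179 at or below 0.5. Hbb-bs was at 0.180 (0.773 in the window), and the part of depth was not tested. In the Ctcfl split Ppargc1a was at 0.939 (1.26 in the window), while Cidea (0.300 and 0.464) and Ebf2 (0.496 and 0.751) were again lower.

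The ratios of the 14 adipocyte markers in the same split ran from 0.598 for Adipoq, which encodes adiponectin, to 1.68 for Dgat2, which makes triglyceride. Of these markers 0 reached 2 or 0.5, beside 4.13% and 2.88% of all genes. With shares that low over all genes, nothing is read from this count of 14 markers. Pparg, the master regulator of fat cells, was at 1890 and 1784 CPM (1.06) and Cidec, a lipid droplet protein, at 2348 and 2280 CPM (1.03). Lep, the hormone leptin, was higher in nuclei with Mageb18, at 698 against 452 CPM (1.55, and 1.61 in the window). Haemoglobin RNA, which adipocytes do not make, gave ratios of 2.66 (Hbb-bs) and 3.30 (Hba-a1) over all nuclei and 1.79 and 2.41 after thinning each nucleus to 1000 UMIs, but 0.965 and 0.969 in the depth window. Mitochondrial UMIs were 0.512% of the total with and 0.988% without Mageb18.

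**Figure D5:**
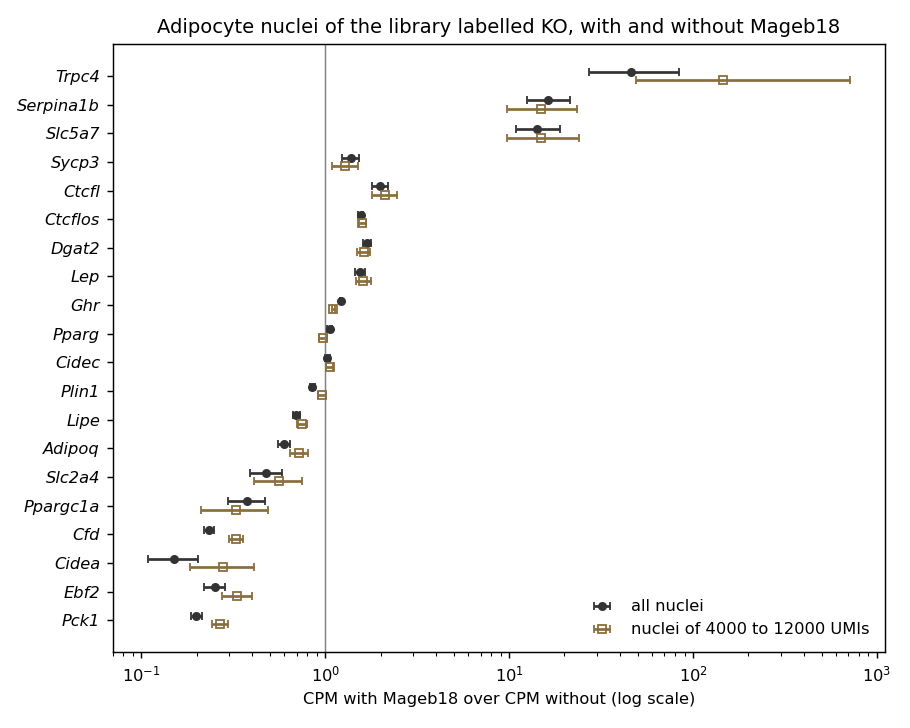
Ratio of CPM in adipocyte nuclei labelled KO with at least 1 Mageb18 UMI over those without (log scale, 95% intervals for counting error), for all nuclei and for nuclei of 4000 to 12000 UMIs; the line marks a ratio of 1. Trpc4, Serpina1b and Slc5a7 lie above 10 and Pck1, Ebf2, Cidea and Cfd below 0.4 in both sets, while Pparg, Cidec and Plin1 lie near 1.

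The genes beside the 3 genes were read in few adipocytes or differed the other way. Pck1, 19868 bases beyond Ctcflos, had 2186 UMIs in adipocytes labelled WT and 5196 in those labelled KO, 1119 against 601 CPM, a ratio of 0.537 (0.511 to 0.565). On the other side of Ctcfl, Rbm38 had 26.6 and 8.79 CPM (0.330, 0.229 to 0.479) and Rae1 26.1 and 20.7 CPM (0.793, 0.578 to 1.11). Spo11, whose product makes the DNA breaks of meiosis, had 3 and 5 UMIs. Beyond Pck1, Zbp1 had 15 and 40 UMIs (0.603, 0.326 to 1.17) and Pmepa1 had 759 and 644 CPM (0.848, 0.801 to 0.899). None of these neighbours other than Ctcfl and Ctcflos themselves was higher in the library labelled KO. Genes with few intronic bases were lower there in general. Their median log2 ratio was -0.60 for more than 3000 and up to 10000 such bases. The neighbours were not set against their length classes. The 6 neighbours of Mageb18, among them Mageb5 and Mageb1, had 0 UMIs in adipocytes and in other nuclei of both libraries.

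Of 29 other genes of the MAGE family and its partner ligases, 24 had a row and 13 of these had no UMI in adipocytes. Besides Mageb18, the type I members Magea2 and Mageb4 had 2 and 1 UMIs in adipocytes labelled KO. Of the 5 genes with at least 50 counts 0 had a ratio of at least 2 between libraries (25.9% of all genes) and 2 had at most 0.5 (17.6% of all genes), namely Maged1 (0.435) and Trim28 (0.475), a cofactor of zinc finger repressors. Their median log2 ratio was -0.75, against -0.05 over all genes tested, and with 5 genes nothing is read from it about the family.

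Ctcf and its cohesin partners were read in adipocytes and in other nuclei of both libraries. All 14 genes of that list had at least 50 counts, with a median log2 ratio of 0.33. A ratio of at least 2 was found in 1 and of at most 0.5 in 1, beside 25.9% and 17.6% of all genes. With 14 genes nothing is read from these counts. Ctcf itself was at 84.5 CPM in adipocytes labelled WT and 52.4 CPM in those labelled KO (0.620, 0.518 to 0.746), in the opposite direction to Ctcfl. The cohesin subunit Stag2 reached 2 (2.05, 1.66 to 2.56), Stag1 was at 1.91 (1.67 to 2.19), and both have more than 100000 intronic bases, where the median log2 ratio was 1.38. Maz, an insulator factor, was at 0.365 (0.268 to 0.499). No gene of the list was 2 times higher in adipocytes than in other nuclei in either library, beside 9.94% (labelled WT) and 13.6% (labelled KO) of all genes. Nothing is read from that count either.

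Of 68 genes of germ cells and meiosis 25 had no UMI in adipocytes and 6 had at least 50 counts. In 5 of these 6 the ratio of the libraries was at least 2, against 25.9% of all genes, but these 5 passed the minimum only through the library labelled KO, so nothing is read from the count. Sycp3, a protein of the synaptonemal complex that pairs chromosomes in meiosis, had 21 UMIs in adipocytes labelled WT and 1488 in those labelled KO, 10.8 against 172 CPM (16.01, 10.4 to 25.9), and 0.857 and 9.46 CPM in other nuclei. Tex14, of intercellular bridges between germ cells, had 1 and 157 UMIs (35.5, 6.28 to 1410). Brdt, a testis bromodomain protein, had 22 and 309 UMIs (3.17, 2.06 to 5.14), Sycp2, a partner of Sycp3, 5 and 62 UMIs (2.80, 1.14 to 8.93) and Zpbp, of the sperm acrosome, 0 and 65 UMIs. Prdm9, which sets the sites of meiotic recombination, was at 30.2 and 31.0 CPM (1.03, 0.772 to 1.38). Tex14 and Zpbp have more than 100000 intronic bases, the class of genes with a median log2 ratio of 1.38, and Sycp3 has 12404.

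Among nuclei labelled KO, 4 of 9 germ cell genes with at least 50 counts were at least 2 times higher in adipocytes than in other nuclei (13.6% of all genes), namely Sycp3, Hormad1, Sycp2 and Prdm9. Hormad1 (46 adipocyte UMIs and 5 others) and Sycp2 (62 and 19) passed the minimum only through adipocytes, so nothing is read from the count. Tex14 (18.2 against 13.05 CPM) and Brdt (35.8 against 29.0 CPM) were not, and Meiob ran the other way (3.24 against 14.8 CPM). Of the germ cell genes compared in nuclei with and without Mageb18, Tex14 was at 25.6 and 9.19 CPM (2.79, and 6.08 in the window), Sycp3 at 197 and 142 CPM (1.38 and 1.29) and Brdt at 34.5 and 37.3 CPM (0.925 and 0.644). Sycp2 was at 7.19 and 7.15 CPM (1.01, and 1.74 in the window, 0.742 to 4.07) and Prdm9 at 33.6 and 27.8 CPM (1.21, and 0.835 in the window).

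Of 24 genes of DNA methylation, its removal (Tet1, Tet2 and Tet3) and other chromatin factors that bear on the silence of germ cell genes 19 had at least 50 counts, and their median log2 ratio was -0.18. A ratio of at least 2 was found in 2 (25.9% of all genes) and of at most 0.5 in 1 (17.6%). Rnf2, a ubiquitin ligase of Polycomb complexes, had 19 and 650 UMIs (7.73, 4.91 to 12.9) and Ehmt1, a histone H3 lysine methyltransferase, 130 and 269 CPM (2.08, 1.83 to 2.38), with more than 100000 intronic bases. Dnmt1, the maintenance DNA methyltransferase, had 35 and 46 UMIs, 17.9 against 5.32 CPM (0.297, 0.187 to 0.475). Atrx, at 0.500 (0.453 to 0.552), lay at the limit without passing it, and the other 15, such as Setdb1 (0.854) and E2f6 (0.557), lay between.

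The genes whose pattern was most like each of the 3 were found by the correlation of log2(CPM + 1) over 12 sums of a class in a library. For Mageb18 these were Sycp3 (r = 0.972), Gm31522 (0.968), Gm16168 (0.962), Tmem135 (0.961) and Bckdhb (0.948). For Ctcflos they were Prkar2b (0.962), a protein kinase A subunit abundant in fat, Pank3 (0.962), G0s2 (0.947), an inhibitor of fat breakdown, Akt2 (0.946) and Nnat (0.942). For Ctcfl they were Gm40761, Gm34759, Spock1, Gssos1 and BC035947 (0.987 to 0.981), of which none had more than 212 UMIs in adipocytes of a library. The 12 sums share libraries and depth.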

How the data were processed

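Nuclei of iWAT were profiled with 10x Genomics 3' v3.1 chemistry in 2 libraries. The deposited values are raw UMI counts per gene and barcode, made by the authors with Cell Ranger (6.1.1 in the file headers), and the submitters' processing notes name mm10 and Seurat version 4. Intron counting, strand, annotation and removal of free RNA are not given in the sources used here. Barcodes with at least 500 genes and at most 5% mitochondrial UMIs were kept. Scrublet (scanpy 1.11.5) doublets were removed, 92 in the library labelled KO. It marked 0 in the library labelled WT, where the 4% with the highest scores (146) were removed.

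Clusters of the merged counts were made in R 4.3.3 with Seurat 5.3.0 (2000 variable genes without the 3 genes described, 20 components, resolution 0.5, no batch correction). A marker passed at 5% of nuclei and 2 times the mean of other clusters, and a class needed 3 passing markers and a lead of 2, a rule set after the data were seen. By summed markers alone 658 and 1083 nuclei were adipocytes, including all 418 and 894 named by cluster, and 422 and 94 nuclei lay within 10% of the next class. Counts were summed per class and library and scaled to CPM. Intervals are exact (Poisson, Clopper-Pearson, conditional binomial) at 95%, and a count of 0 was taken to allow 3. Ratios across genes needed at least 50 counts. Alternatives included TMM scaling (edgeR 4.0.16). Ratio scripts were tested on simulated data. Intronic lengths came from GENCODE M1 by gene ID, and positions and promoters from RefSeq (GRCm38.p6), which matched 3 of 3 genes for position and 2 of 3 for promoters. Ctcfl has no promoter entry there.

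Genes named are the 3 genes, the listed genes, the 3 neighbours on each side, and the 5 most alike by correlation, plus genes of the Mageb18 split. Some of the last were also given for a split by Ctcfl. The genes and lists were chosen with earlier results of these data known.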

Additional observations from a re-analysis of the deposited data

Results flagged for a closer look

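Signal of the 3 genes also appeared in barcodes that the comparisons did not use. The 1351 excluded barcodes of the library labelled WT held 126 UMIs of Ctcflos, above the 3 that a count of 0 allows, with 1 UMI of Ctcfl and 0 of Mageb18. The 2056 excluded barcodes of the library labelled KO held 38 UMIs of Ctcfl, 389 of Ctcflos and 86 of Mageb18. As levels these were 54.5 CPM for Ctcflos in the library labelled WT, and 12.5, 128 and 28.4 CPM for Ctcfl, Ctcflos and Mageb18 in the library labelled KO. Adipoq, the adiponectin gene, stood at 115 and 765 CPM in the same barcodes, which failed the filter on genes or mitochondrial UMIs. What the UMIs in them come from was not tested.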

How the results depend on the processing

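No paired analysis was possible because there is 1 library per genotype and the labels give no replicate numbers. Of the main results under each alternative, 29 values lay outside the interval of the main value for counting error (for a count of genes, moved by over 1.5 times), 76 did not, and 1 changed direction. That was the odds ratio of Ctcfl with Mageb18 labelled WT, which was 0 at 1000 UMIs, where 5 and 3 nuclei had a UMI and 0 had both. The haemoglobin ratios of the Mageb18 split also passed from above to below 1 in the depth window. The share of nuclei with a UMI follows the depth chosen. At 500 and 2000 UMIs per nucleus it was 7.27% and 26.2% for Ctcfl, 54.3% and 89.0% for Ctcflos and 21.4% and 33.7% for Mageb18 in adipocytes labelled KO. In those labelled WT it was 0.239% and 4.83% for Ctcfl, 34.9% and 70.7% for Ctcflos, and 0% at 500 UMIs for Mageb18. With classes set by summed markers it was 66.4% (Ctcflos, labelled KO), 42.3% (Ctcflos, labelled WT) and 24.3% (Mageb18, labelled KO). The log2 ratio of Ctcflos between libraries was 1.23 with classes by summed markers and 0.99 with at least 1000 genes per barcode. It was 0.81 without mitochondrial genes and Malat1, 1.36 with TMM and 1.26 less the median of its class of intronic length. That of Mageb18 was 5.90 less the median of its class, which was 1.38. Genes within 2 times the intronic length of Mageb18 had a higher median, 2.05. Against other nuclei, log2 ratios were 7.07 (Ctcfl) and 6.46 (Ctcflos) in the library labelled KO with doublets kept, and 5.06 for Ctcflos labelled WT with at least 1000 genes. Odds ratios at 1000 UMIs were 2.62 (Ctcfl with Ctcflos) and 2.72 (Ctcfl with Mageb18), and that of Ctcflos with Mageb18 was 3.01 against 21.9, within a wide interval that rests on 1 nucleus. With at least 1000 genes per barcode the log2 ratio of Ctcfl to other nuclei was 9.41 labelled KO and 5.30 labelled WT, within intervals that rest on 4 UMIs and 1. For the Mageb18 split, 113 genes were at or above 2 and 104 at or below 0.5 after thinning, and 229 and 177 in the depth window, with fewer genes tested in both (3205 and 8316, against 10608). These 2 alternatives were chosen after seeing the data. With a pseudocount of 10 CPM, 2 of the 5 most alike genes were shared for Ctcflos and for Mageb18, and 4 for Ctcfl. Other causes were not tested.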
